A study of Mus musculus with 2 samples.

Results

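The 10 genes described here belong to the BCL2 family, which sets whether a T cell survives or dies through its mitochondria: Bcl2, Bcl2l1, Mcl1, Bcl2a1b, Bax, Bak1, Bcl2l11, Bad, Bbc3 and Pmaip1. They were taken by name, as 10 of the 12798 gene rows of the count table, and all 10 were present. The cells were 8562 CD8 T cells from colon lamina propria, measured by droplet single-cell RNA sequencing from the 5′ end of the transcript, in a mouse model of colitis driven by transferred T cells. The hosts were Rag1 knockout mice, which make no mature T or B cells of their own. The age given at the start of the transfer was 8 to 12 weeks. Each host received 100000 naive CD4 T cells (CD45RBhigh CD25-) of wildtype spleens together with 500000 splenic CD8 T cells, and the colon cells were taken 6 to 10 weeks later. The CD8 donors were either Bcl6fl/fl, with loxP sites in both Bcl6 copies, or Bcl6fl/fl Cd8aCre, which also makes Cre recombinase under control of Cd8a.

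Cells carried 8 hashtag antibodies and ran as 1 pooled library, with 4 hashtags labelled Cren (4405 cells) and 4 labelled Crep (4157 cells). Cren and Crep were read as Cre-negative and Cre-positive, a reading that no source spells out. Whether a hashtag stands for 1 mouse is also not stated, so every p-value measures the spread between hashtags, which may be technical. Totals ran from 2635241 to 4201265 UMIs (unique molecules counted) per hashtag. Levels are given as CPM, the UMIs of a gene per 1000000 UMIs of the same cells. The CD8 T cell genes Cd3e and Cd8a were detected in every hashtag, at 1293 to 1608 and 677 to 1046 CPM. Of 9 myeloid and neutrophil markers, Csf3r was absent from the gene rows. The other 8 summed to 308 to 426 CPM in Cren and 303 to 369 in Crep. Among them, Lyz2 was at 49.9 to 78.5 CPM and C1qb at 7.9 to 17.1. S100a8, S100a9 and Itgam were at no more than 1.9, 3.2 and 4.4. A list of 7 cytotoxic effector genes summed to 3630.0 to 8352 CPM in Cren and 9713 to 14594 in Crep, and a list of 7 exhaustion genes to 754 to 1019 and 526 to 665. Neither summed range overlapped between the groups. By single genes, edgeR called 0 of the cytotoxic list and 1 of the exhaustion list over all cells, beside 0.611% of all genes. The part of these lists in the values of the BCL2 family was not tested.

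Bcl6, the targeted gene, was measured at 16.7, 17.6, 15.4 and 20.5 CPM in the Cren hashtags and at 32.4, 29.9, 30.5 and 24.3 in the Crep hashtags. All 4 hashtags labelled Crep were therefore above all 4 labelled Cren, by 0.75 on the log2 scale (SE 0.14, adjusted p = 0.0293 in edgeR's quasi-likelihood test, over all genes). The call was lost when Cren 1, Cren 2, Crep 1, Crep 2 or Crep 3 was left out, with adjusted p between 0.0520 and 0.117, and also with cells thinned to 2000 UMIs (0.0675) or clusters weighted equally (0.0634). The direction goes against a loss of Bcl6 RNA in Crep. Which exons the loxP sites flank is not given in the sources used here, so RNA counted at the 5′ end may lie outside the deleted part, and this level does not check the labels.

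The BCL2 family acts at the outer membrane of the mitochondrion. Anti-apoptotic members such as BCL2, MCL1 and A1 hold the effectors BAX and BAK in check, BH3-only members such as BIM and PUMA bind the anti-apoptotic members or the effectors, and freed effectors open the membrane and release cytochrome c. In T cells, interleukin signals are known to maintain Bcl2 and Mcl1, T cell receptor and NF-kB signals induce Bcl2l1 and A1, and BIM removes T cells when an immune response ends.

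The feature that gives the BH3-only class its name is a short helix, present in most members, that binds a groove on the anti-apoptotic proteins. A script searched the reading frames of the GENCODE M21 transcripts (build GRCm38) for its core: a leucine, 3 arbitrary residues, a glycine or alanine, and an aspartate. Coding stretches around the match are shown for 6 members, because they are what the death-promoting and the protective genes of this report share. Capitals mark the codons of the core.

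Bcl2: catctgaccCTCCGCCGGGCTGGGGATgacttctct
Mcl1: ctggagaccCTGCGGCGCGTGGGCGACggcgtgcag
Bax: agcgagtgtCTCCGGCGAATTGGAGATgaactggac
Bak1: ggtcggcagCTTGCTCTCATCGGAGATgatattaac
Bcl2l11: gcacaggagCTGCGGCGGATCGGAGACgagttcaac
Bbc3: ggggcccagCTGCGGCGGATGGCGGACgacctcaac

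The core lay at residues 94 to 99 of 236 in the Bcl2 frame, 194 to 199 of 331 in Mcl1, 63 to 68 of 192 in Bax, 76 to 81 of 209 in Bak1, 150 to 155 of 196 in the Bcl2l11 transcript used and 141 to 146 of 193 in Bbc3. Bcl2l1 held it at residues 90 to 95 of 233. It was not found in Bad or in the Bcl2a1 copies, which says only that these letters are not there. Pmaip1 was not searched.

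Over all cells, no member passed the test between the groups. At an adjusted p of 0.05 (edgeR, Benjamini-Hochberg over 9653 genes), 0 of 10 members were called, against a background of 59 genes, or 0.611%. At an unadjusted p under 0.05, 1 member, Bcl2l1, stood beside 1076 genes of the background (11.1%). DESeq2 and limma-voom called 0 members as well. The log2 changes (Crep minus Cren) were negative for 8 members and positive for 2, from -0.59 to 0.51, with a median of -0.12 against a median of 0.00 over all genes tested. Every member's hashtag ranges overlapped between the groups. The share of all genes with overlapping ranges was not computed, so this is a description only.

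**Figure D1:**
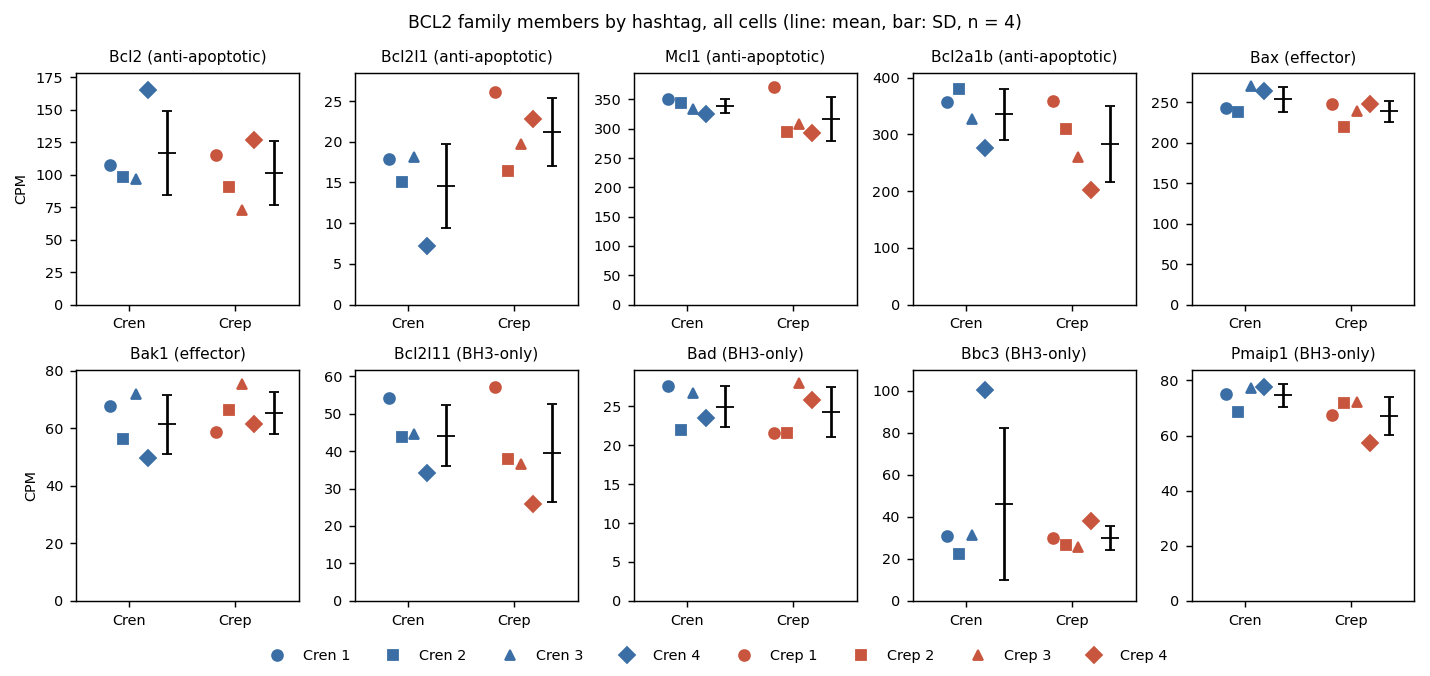
Each panel plots 1 gene's CPM (vertical axis, from 0) in the 4 Cren and 4 Crep hashtags, all cells of a hashtag summed; the line and bar beside each group are the mean and SD over 4 hashtags. The groups overlap in all 10 panels, and Cren 4 stands above the other Cren hashtags for Bcl2 (165) and Bbc3 (100.4).

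The anti-apoptotic members held most of the family's RNA. Each UMI counts 1 transcript by its 5′ end, so levels of different genes, in CPM, need no scaling by length. Mcl1 (chromosome 3, 95658788 to 95663176, GRCm38) made up 26.2% of the 10 genes' UMIs, Bcl2a1b 25.05%, Bcl2 8.56% and Bcl2l1 1.43%, and these 4 together 61.3%. The effectors held 24.7% and the 4 BH3-only genes 14.0%.

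Mcl1, a short-lived guardian that many lymphocytes depend on, was measured at 352, 344, 333 and 325 CPM in Cren and at 371, 294, 308 and 292 in Crep. The groups overlapped, with Crep 1 the highest of all 8. Its log2 change was -0.10 (95% interval -0.27 to 0.08, adjusted p = 0.732 in edgeR).

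Bcl2 (chromosome 1, 106538178 to 106714274), which supports naive, memory and stem-like T cells downstream of interleukin receptors, was measured at 108, 98.3, 96.9 and 165 CPM in Cren and at 115, 90.3, 72.7 and 127 in Crep. Hashtag 4 was the highest of each group, and the remaining values ran together. On the log2 scale the groups differed by -0.21 (95% interval -0.75 to 0.34, adjusted p = 0.8287 in edgeR). It was 0.00 when Cren 4 was left out and 0.08 when 5 fine clusters were weighted equally.

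Bcl2l1 (chromosome 2, 152780668 to 152831728), the gene of BCL-XL, was the scarcest member, with 460 UMIs in all. Its levels were 17.9, 15.1, 18.2 and 7.2 CPM in Cren and 26.1, 16.4, 19.7 and 22.8 in Crep. Cren 4 was the lowest, and 3 of 4 Crep hashtags lay above all of Cren. The log2 change of 0.51 (95% interval 0.01 to 1.01) had an unadjusted p of 0.0455 and an adjusted p of 0.437 in edgeR. Without Cren 4 it was 0.31.

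Of the effectors, Bax (chromosome 7, 45461697 to 45466898) was measured at 243, 238, 269.9 and 264 CPM in Cren and at 248, 219.8, 239.9 and 248 in Crep. The highest and the lowest hashtag lay close to each other in both groups. Its log2 change was -0.08 (95% interval -0.25 to 0.08, adjusted p = 0.750 in edgeR).

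Bak1 (chromosome 17, 27019810 to 27029009), the second pore-forming gene, was measured at 67.8, 56.2, 71.8 and 49.6 CPM in Cren and at 58.5, 66.2, 75.2 and 61.5 in Crep. The groups overlapped, with Cren 4 the lowest and Crep 3 the highest. Crep minus Cren was 0.09 on the log2 scale (95% interval -0.17 to 0.35, adjusted p = 0.861 in edgeR).

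Among the BH3-only genes, Bcl2l11 (chromosome 2, 128126038 to 128162547), which encodes BIM, was measured at 54.3, 43.6, 44.5 and 34.1 CPM in Cren and at 57.2, 38.0, 36.5 and 25.8 in Crep. Hashtag 1 was the highest and hashtag 4 the lowest of each group. For Bcl2l11 the log2 change was -0.17 (95% interval -0.67 to 0.33, adjusted p = 0.858 in edgeR). Counted against Bcl2, its protective partner, there were 0.504, 0.444, 0.459 and 0.206 Bcl2l11 UMIs per Bcl2 UMI in Cren and 0.497, 0.420, 0.502 and 0.203 in Crep. Hashtag 4 of each group thus had less than 0.21, and the 6 other hashtags more than 0.41. No source says that hashtags of the same number share an animal, a day or a cage.

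Bbc3 (chromosome 7, 16308393 to 16318205), which encodes PUMA and is a known target of p53 and FOXO factors, was measured at 30.9, 22.3, 31.2 and 100.4 CPM in Cren and at 30.1, 26.5, 25.7 and 37.9 in Crep. Cren 4 stood far above the other 7 hashtags, which overlapped. The log2 change was -0.59 with a 95% interval from -1.89 to 0.71 (adjusted p = 0.773 in edgeR), and it turned to 0.08 when Cren 4 was left out.

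Bad (chromosome 19, 6941861 to 6951899), whose protein is held inactive by survival-factor kinases, ranged from 22.0 to 27.6 CPM in Cren and from 21.5 to 27.9 in Crep. Its log2 change of -0.05 (95% interval -0.34 to 0.24, adjusted p = 0.946 in edgeR) came from 632 UMIs.

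Pmaip1, which encodes NOXA, a partner of MCL1 and A1, was measured at 75.0, 68.5, 77.2 and 77.6 CPM in Cren and at 67.5, 71.9, 72.0 and 57.3 in Crep. Crep 4 was the lowest, and 3 of 4 Cren hashtags lay above all of Crep. For Pmaip1 the log2 change was -0.14 (95% interval -0.35 to 0.07, adjusted p = 0.662 in edgeR).

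Bcl2a1b is 1 of several near-identical copies of the A1 gene on chromosome 9 (89199209 to 89207827 for Bcl2a1b, 88956900 to 88962419 for Bcl2a1a and 88723285 to 88731914 for Bcl2a1d, GRCm38). A1 is an anti-apoptotic gene of activated lymphocytes. The coding frames of the 3 copies are 519 bases long and differ at 6 bases between Bcl2a1b and Bcl2a1d, 7 between Bcl2a1a and Bcl2a1d and 11 between Bcl2a1a and Bcl2a1b. The first 60 coding bases are shown because reads from the 5′ end must tell the copies apart on such stretches. Capitals mark the 6 positions at which the 3 copies are not all the same.

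Bcl2a1a: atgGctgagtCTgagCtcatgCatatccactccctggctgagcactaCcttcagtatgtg
Bcl2a1b: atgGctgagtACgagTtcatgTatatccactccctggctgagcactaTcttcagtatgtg
Bcl2a1d: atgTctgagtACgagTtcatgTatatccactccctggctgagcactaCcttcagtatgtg

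The copies' levels are therefore uncertain one by one, since counting could drop or misplace reads that they share. Bcl2a1b was measured at 357, 379, 328 and 277 CPM in Cren and at 359, 309, 259.6 and 203 in Crep. The groups overlapped, and hashtag 4 was the lowest of each. Its log2 change was -0.24 (95% interval -0.62 to 0.13, adjusted p = 0.671 in edgeR), and -0.13 with 5 fine clusters weighted equally.

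Bcl2a1d, no member but the next most abundant copy, was measured at 184, 202, 174 and 164 CPM in Cren and at 168, 159, 116 and 82.3 in Crep. Only Crep 1 reached the Cren range. Its log2 change was -0.45 (95% interval -0.94 to 0.04, adjusted p = 0.489 in edgeR), and -0.22 with 5 fine clusters weighted equally. Bcl2a1a, with 168 UMIs in all, was at 15.2, 4.40, 7.57 and 11.7 in Cren and at 1.65, 4.03, 2.86 and 2.28 in Crep, a log2 change of -1.82 (95% interval -2.68 to -0.96, adjusted p = 0.0657 in edgeR). Its groups did not overlap. DESeq2 (adjusted p = 0.00749) and the edgeR test without Cren 2 (adjusted p = 0.0119) called it, and with clusters weighted equally its log2 change was -0.77. With the copies summed into 1 row, the log2 change over all cells was -0.33 (95% interval -0.74 to 0.07, adjusted p = 0.543 in edgeR).

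**Figure D2:**
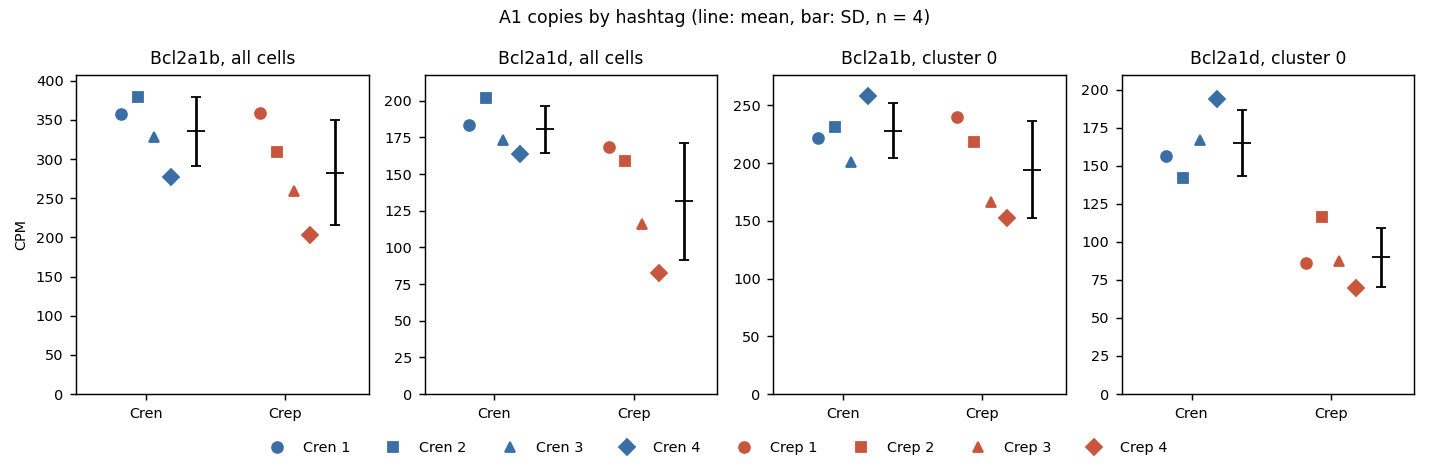
CPM (vertical axis, from 0) of Bcl2a1b and Bcl2a1d in each hashtag, over all cells and in fine cluster 0; lines and bars are the mean and SD over 4 hashtags. In cluster 0 the 4 Crep hashtags lie between 69.4 and 116 for Bcl2a1d, below the Cren range of 142 to 194, while Bcl2a1b overlaps between the groups.

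The authors' annotation splits the cells into 12 fine clusters, named here by number and leading genes. The test was run where 3 or more hashtags of each group had 20 or more cells, which left 6 clusters. In cluster 0 (led by Trav8n-2, Itgae and Gpr34), 0 of 8 members passed, against 0.98% of genes called. In cluster 1 (Tbxa2r, Dnajb1, Hspa1a) it was 0 of 8 against 0.173%, in cluster 2 (1700003C15Rik, Apol7b, Ahr) 0 of 8 against 0.28%, and in cluster 3 (Lmna, Socs2, Rgcc) 0 of 9 against 0.0%. In cluster 5 (Ifitm1, Tnfrsf25, Ggt1) it was 0 of 8 against 1.19%, and in cluster 6 (Nr4a1, Nfkbia, Serpinb9) 0 of 8 against 0.0269%. In cluster 3, where edgeR called no gene at all, 261 genes had an unadjusted p under 0.05 and DESeq2 called 2. Bcl2l1 passed the filter on low counts in cluster 3 only, and Bad in none. Of 49 tests of members within clusters, 4 (8.16%) had an unadjusted p under 0.05, beside 7.16% of the 27331 tests of all genes in these clusters, and 29 log2 changes were negative.

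The A1 copies gave the clearest difference inside a cluster. In cluster 0, Bcl2a1d was at 156, 142, 167 and 194 CPM in Cren and at 86.4, 116, 87.5 and 69.4 in Crep. All 4 Crep hashtags lay below all 4 Cren hashtags. It fell by 0.78 on the log2 scale in Crep (95% interval -1.11 to -0.46, adjusted p = 0.00603 in edgeR). The adjusted p was 0.0553 without Crep 3 and between 0.000589 and 0.0436 under the other 9 alternatives. In clusters 1, 2, 3, 5 and 6 the log2 changes of Bcl2a1d were -0.10, -0.10, 0.15, -0.45 and 0.03. None of these was called, and the lowest adjusted p was 0.376 in edgeR (cluster 5).

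Bcl2a1b in cluster 0 was at 222, 231, 201 and 258 CPM in Cren and at 240.1, 219, 166 and 153 in Crep. These ranges overlapped, and the log2 change was -0.18 (95% interval -0.45 to 0.09, adjusted p = 0.811 in edgeR). Cells of cluster 0 held 0.704, 0.614, 0.831 and 0.750 Bcl2a1d UMIs per Bcl2a1b UMI in Cren and 0.360, 0.531, 0.526 and 0.455 in Crep. This ratio was formed after the levels were seen and was not tested. With all A1 copies summed, a setting added after the data were seen, cluster 0 gave a log2 change of -0.47 (95% interval -0.72 to -0.22, adjusted p = 0.0462 in edgeR), the 1 called value among rows that hold a member. In the other 5 clusters the summed row was not called, with changes from -0.56 to 0.13.

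**Figure D3:**
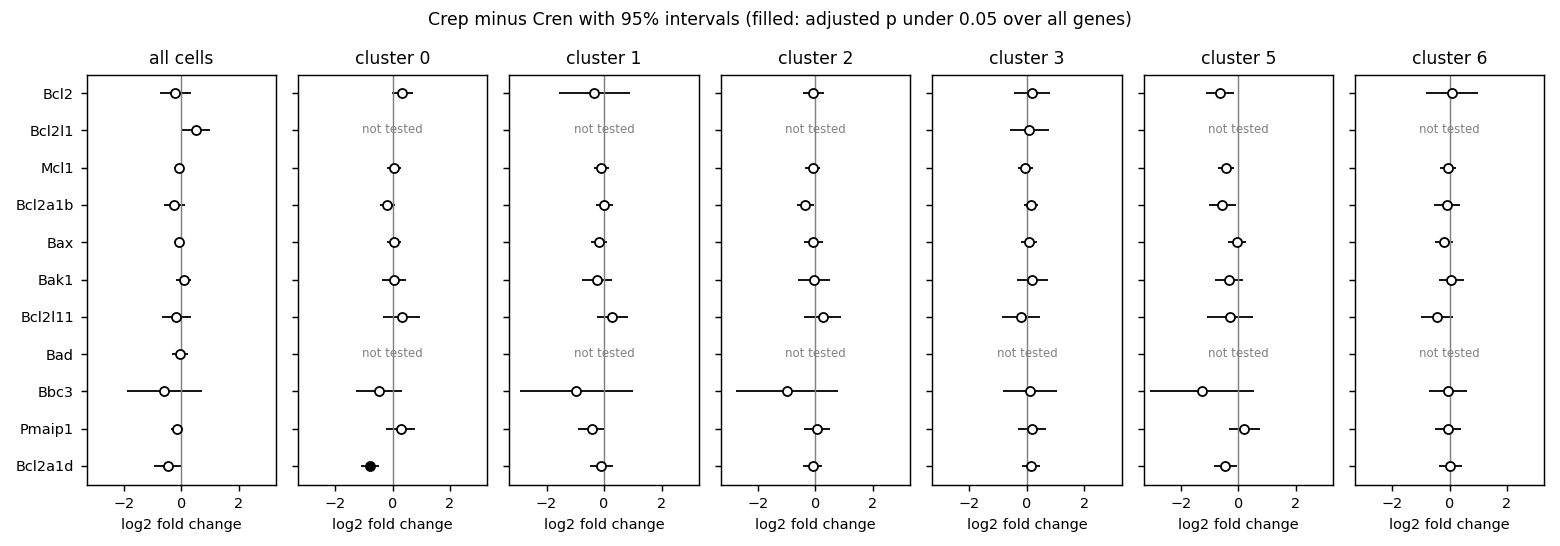
Log2 fold changes, Crep minus Cren (horizontal axis), with 95% intervals for the 10 members and Bcl2a1d, over all cells and in the 6 tested fine clusters; filled points have an adjusted p under 0.05 over all genes. Bcl2a1d in cluster 0 is the only filled point, and in cluster 5 the intervals of Bcl2, Mcl1, Bcl2a1b and Bcl2a1d lie below 0.

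In cluster 5, Mcl1 was at 331, 377, 358 and 421 CPM in the Cren hashtags and at 248, 270.0 and 298 in Crep 1, 2 and 3 (Crep 4 had fewer than 20 cells there and was dropped). All 3 Crep values lay below the Cren range. The log2 change was -0.43 (95% interval -0.72 to -0.14), with an unadjusted p of 0.00454 and an adjusted p of 0.151 in edgeR. Bcl2a1b in this cluster was at 284, 431, 259 and 387 in Cren and at 143, 299 and 214 in Crep, a log2 change of -0.55 (unadjusted p = 0.0236, adjusted p = 0.347 in edgeR). Bcl2 was at 111, 112, 98.7 and 148 in Cren and at 124, 58.4 and 75.9 in Crep, a log2 change of -0.63 (unadjusted p = 0.0124, adjusted p = 0.266 in edgeR). Both of these overlapped between the groups.

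The fourth member test with an unadjusted p under 0.05 was that of Bcl2a1b again, in cluster 2. It was at 615, 534, 497 and 355 CPM in Cren and at 457, 413, 337 and 292 in Crep. Cren 4 lay within the Crep range. The log2 change was -0.36 (unadjusted p = 0.0175, adjusted p = 0.579 in edgeR).

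The difference of effects between clusters 0 and 1, the 2 largest, was tested as an interaction. It was called for 0 of 10 members, against 9 of 6703 genes, or 0.134%. Bcl2 had a log2 change of 0.34 in cluster 0 (95% interval -0.03 to 0.71) and of -0.34 in cluster 1 (95% interval -1.58 to 0.90). The difference fitted between them was -0.72 (95% interval -1.26 to -0.17, unadjusted p = 0.0113, adjusted p = 0.661 in edgeR). In cluster 0 its levels were 90.5, 81.0, 73.1 and 108 CPM in Cren and 154, 100.04, 79.0 and 132 in Crep, and in cluster 1 they were 106, 52.2, 101 and 199.8 in Cren and 95.3, 50.9, 78.5 and 166 in Crep. Groups overlapped in both clusters. For Pmaip1 the difference was -0.66 (unadjusted p = 0.0501, adjusted p = 0.825 in edgeR). For Bcl2a1d, which is no member, it was 0.79 (95% interval 0.29 to 1.29, unadjusted p = 0.00232, adjusted p = 0.445 in edgeR). Its effects in clusters 0 and 1 were therefore not shown to differ.

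Cren 4 was the highest Cren hashtag for Bcl2 and Bbc3 in many clusters. In cluster 1, Bbc3 was at 31.5, 34.8, 31.8 and 143 CPM in Cren and at 29.8, 20.4, 33.9 and 48.3 in Crep. Bbc3 is itself among the 10 leading genes of cluster 1, so its level there against other clusters is no result. Within Cren, Cren 4 had the highest Bbc3 level in 7 of the 7 clusters where it had at least 20 cells, and the highest Bcl2 level in 7 of 7. Within Crep, Crep 4 had the highest Bbc3 level in 5 of 7 clusters and the highest Bcl2 level in 5 of 7. In cluster 6, Bcl2 reached 229.6 in Crep 4 against 56.7 to 98.6 in Crep 1, 2 and 3, from 24 UMIs.

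**Figure D4:**
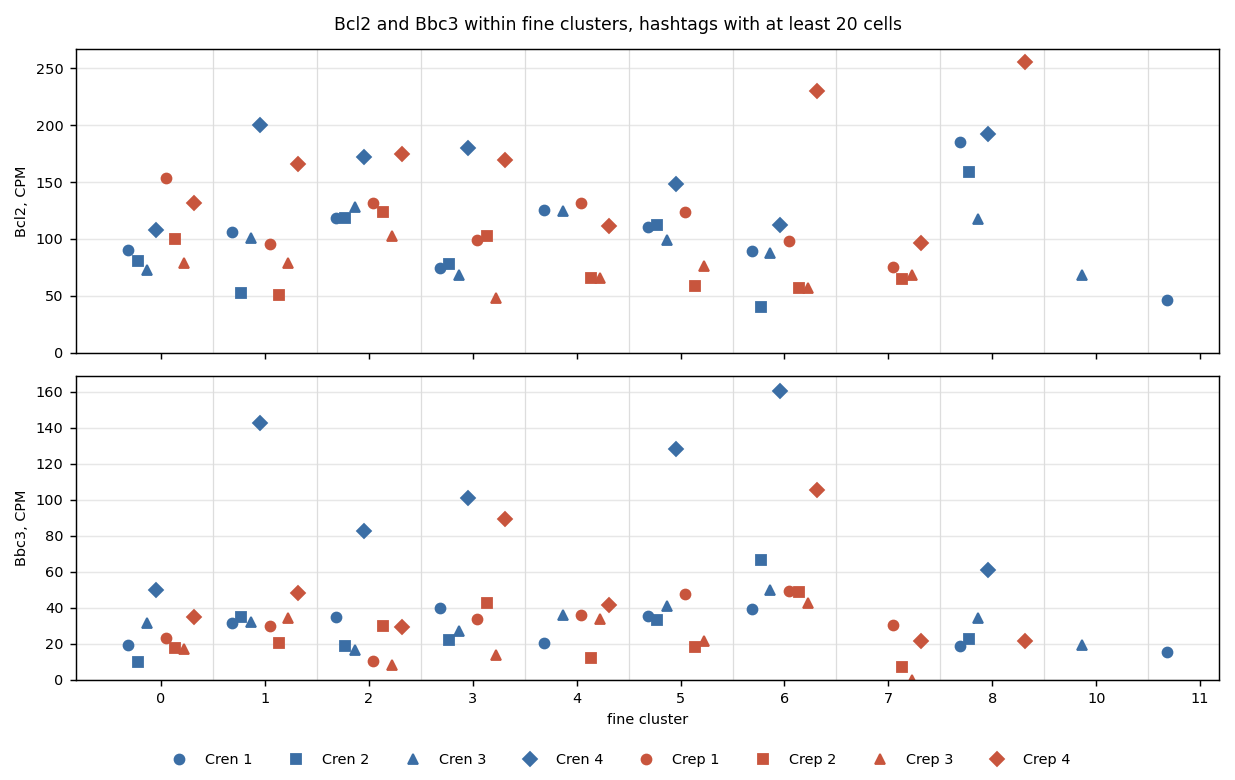
CPM (vertical axes, from 0) of Bcl2 (top) and Bbc3 (bottom) in each fine cluster (horizontal axis), 1 point per hashtag with at least 20 cells there. Cren 4, the blue diamond, is the highest Cren hashtag for both genes in 7 of 7 clusters.

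Other genes also set Cren 4 apart. Il7r, the receptor chain of the survival cytokine interleukin 7, was at 849, 832, 569 and 1314 CPM in Cren and at 622, 717, 765 and 667 in Crep. The heat shock gene Hspa1a was at 493, 372, 637 and 908 in Cren and at 335, 259, 474 and 323 in Crep, and the chaperone gene Dnajb1 at 319.9, 309.6, 374 and 639 in Cren and at 259, 215, 277 and 301 in Crep. Cren 4 was the highest of all 8 hashtags for all 3 genes. Its median mitochondrial share, 0.805%, was also the highest of the 8. Their part in the Bbc3 and Bcl2 levels was not tested.

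Levels also varied across the fine clusters. The clusters were built from the expression of these cells, so the levels are given as a description with no test. In the 9 clusters with at least 4 hashtags of 20 or more cells, the highest mean was 4.76 times the lowest for Bbc3, 4.33 for Bcl2l1, 4.10 for Bcl2l11 and 3.51 for Pmaip1. It was 2.46 times for Bcl2a1b, 2.38 for Bcl2, 2.27 for Bak1, 2.05 for Bad, 1.74 for Mcl1 and 1.27 for Bax. Neighbours in each order mostly lay within the spread of their hashtags: for 7 members, 0 of 8 neighbouring pairs differed by more than the larger SD, and for Mcl1, Bak1 and Pmaip1 it was 1 of 8.

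**Figure D5:**
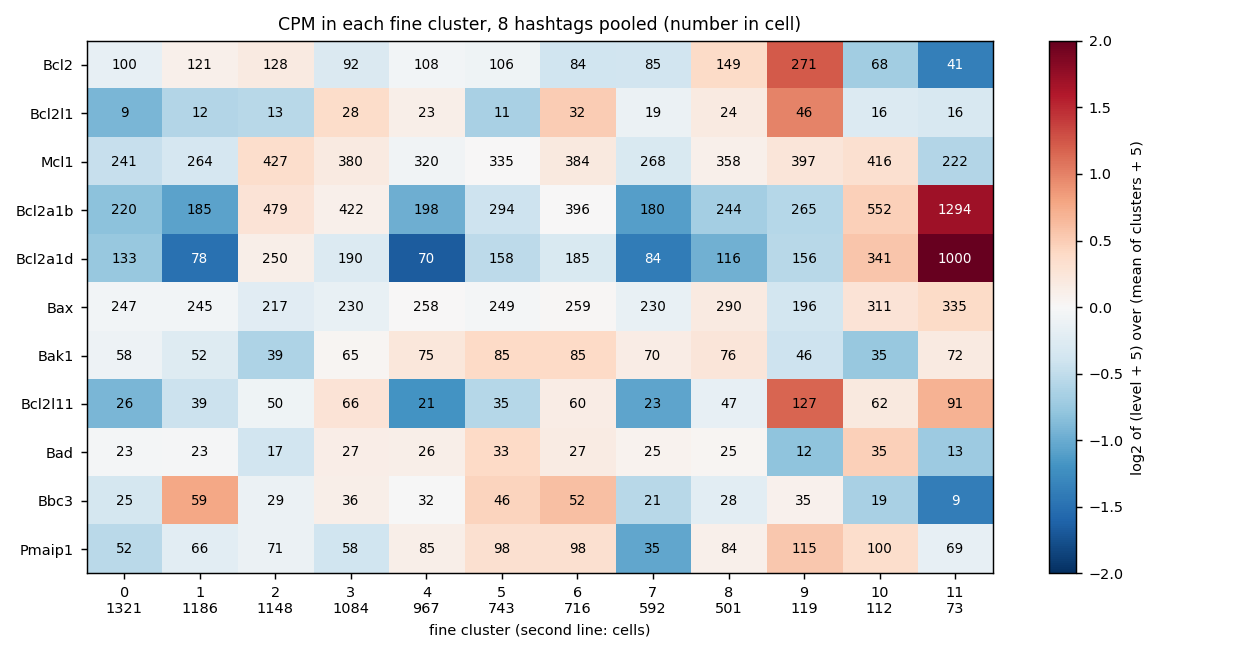
Pooled level of each member and of Bcl2a1d in the 12 fine clusters, printed in each cell in CPM; colour is the log2 ratio of the level plus 5 to the mean over clusters plus 5, and the second line of the horizontal axis gives the cells per cluster. Bcl2a1b and Bcl2a1d peak in cluster 11 (1294 and 1000.4), where Bcl2 is lowest (40.6).

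Mcl1 was highest in cluster 2, at 413 ± 52.4 CPM (SD, n = 8 hashtags), followed by cluster 3 (395 ± 55.8), cluster 8 (389.9 ± 68.5, n = 5) and cluster 6 (387 ± 34.8). It was lowest in cluster 1 (259 ± 36.4), cluster 7 (256 ± 56.1, n = 4) and cluster 0 (238 ± 27.6). The drop beyond the hashtag spread lay between cluster 4 (312 ± 31.8, n = 6) and cluster 1.

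Bcl2a1b had much the same upper end: 437 ± 109 in cluster 2, 394 ± 50.5 in cluster 3 and 383 ± 108 in cluster 6 (SD, n = 8 hashtags each). It was between 178 and 211 in clusters 0, 1, 4, 7 and 8. Cluster 11 (led by the chemokine gene Xcl1, Penk and Ccl1), with 73 cells and 1 hashtag of at least 20 cells, held 1294 CPM (exact Poisson 95% interval 1173 to 1425, counting error only) of Bcl2a1b and 1000.4 (894 to 1116) of Bcl2a1d.

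Bcl2 ran in another order. It was highest in cluster 8 (led by Tox, Gm30211 and Pdcd1), at 182 ± 50.6 CPM (SD, n = 5 hashtags), then in cluster 2 at 134 ± 26.0 (n = 8), and lowest in cluster 7 (Trav19, Gm32772, Trav3-3) at 76.3 ± 14.0 (n = 4). Of the 501 cells of cluster 8, 448 were labelled Cren, while the 4 hashtags of cluster 7 were all Crep. Crep 4 held 256 in cluster 8, from 12 UMIs. Without that hashtag the cluster 8 mean was 163 ± 33.8 (n = 4), still the highest. In cluster 11 Bcl2 was at 40.6 (exact Poisson 95% interval 21.6 to 69.5). In cluster 9 (Gm26917, Rfx3, Smad3), whose 119 cells had a median of 1007 UMIs and 2.04% mitochondrial UMIs, it was 271 (199 to 360) from 47 UMIs.

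Bcl2l1 was at or under 34.5 in all 9 clusters, from 34.5 ± 29.2 CPM in cluster 8 (SD, n = 5 hashtags) to 7.97 ± 4.55 in cluster 0 (n = 8). Crep 4 held 85.2 in cluster 8, from 4 UMIs. Without that hashtag the cluster 8 mean was 21.8 ± 8.13 (n = 4), cluster 3 was highest at 27.5 ± 9.21 (n = 7), and the highest mean was 3.39 times the lowest.

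Of the effectors, Bax had the smallest ratio of highest to lowest cluster among the 10 members. It ran from 277 ± 37.2 CPM in cluster 8 (SD, n = 5 hashtags) to 218 ± 37.1 in cluster 2 (n = 8), and these ends overlapped between hashtags. Bak1 ran from 85.2 ± 11.7 in cluster 6 to 52.6 ± 13.8 in cluster 1, and then dropped beyond the hashtag spread to 37.6 ± 11.2 in cluster 2 (n = 8 each).

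Of the BH3-only genes, Bcl2l11 was highest in cluster 3, at 80.3 ± 32.4 CPM, then in cluster 6 at 57.9 ± 17.2 (SD, n = 8 hashtags each). It was lowest in cluster 7 at 26.3 ± 12.3 (n = 4), in cluster 0 at 25.9 ± 10.1 (n = 8) and in cluster 4 (S1pr5, Cx3cr1, Kcnj8) at 19.6 ± 13.6 (n = 6). In cluster 9 it was 127 (exact Poisson 95% interval 79.4 to 192). Pmaip1 ran from 100.4 ± 19.2 in cluster 6 (n = 8) to 28.6 ± 11.2 in cluster 7 (n = 4), and Bbc3 from 70.2 ± 42.2 in cluster 6 (n = 8) to 14.7 ± 13.6 in cluster 7 (n = 4). The Bbc3 levels of cluster 7 rested on 8, 2, 0 and 22 UMIs in Crep 1, 2, 3 and 4. Without Crep 1, the lowest Bbc3 mean was 9.63 ± 11.0 (cluster 7, n = 3), and the highest was 7.60 times it. The highest Bbc3 mean was 3.77 times the lowest without Crep 3. Without Cren 4 it was 3.89 times the lowest, with cluster 6 at 57.3 ± 22.8 (n = 7). Cluster 7 was the lowest of the 9 for Bcl2, Bbc3 and Pmaip1. Of its 592 cells, 570 were labelled Crep, and it made up 36.6% of the cells of Crep 4.

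Over the 11 clusters of at least 100 cells, the genes whose log2 level followed a member most closely were found among 2941 genes. The clusters share 1 library and differ in depth, so these Pearson correlations are descriptions. Cluster 9, with a median of 1007 UMIs per cell, is among the 11. Bcl2 (271 CPM) and Bcl2l11 (127) had their highest pooled levels there, and Bad rested on 2 UMIs. How far the correlations depend on cluster 9 was not tested. For Bcl2a1b the closest genes were its copy Bcl2a1d (r = 0.95), Gadd45b (0.91) and the AP-1 gene Junb (0.90). Junb (0.94) also stood among the 3 nearest of Mcl1, with the calcium channel gene Orai1 (0.96) and Ubald2 (0.93). For Bcl2l11 they were Smad7 (0.93), the NF-kB subunit gene Rel (0.92) and Birc3 (0.92), an inhibitor of apoptosis. For Bcl2 they were Ubxn4 (0.95), Il16 (0.94) and mt-Atp6 (0.93). For Bax they were Eif4e2 (0.90), Pnpla2 (0.89) and Dusp11 (0.87), and for Bad Ncf4 (0.97), Rgs19 (0.96) and Tspo (0.96). For Pmaip1 they were Ifrd1 (0.90), Arf4 (0.88) and Zfp36 (0.88). Bak1 (Sars 0.85, Ap1m1 0.84, Nipsnap3b 0.84) and Bbc3 (Trbv17 0.81, Nrbp1 0.76, Cited2 0.72) had the loosest neighbours.

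Bcl2a1b and Bcl2a1d also share sequence upstream of their starts. The RefSeq promoter windows (GRCm38.p6, 250 bases before to 50 after the start, on both strands) were searched for TGANTCA. This is a loose form of the AP-1 site, with any base in the middle, and 7.81% of the 32851 windows hold it. TGANTCA was present in Bcl2a1a, Bcl2a1b and Bcl2a1d and in no other window of a member searched. Each match read TGAATCA, with A in the middle, where the usual AP-1 site has C or G. Stretches of 47 bases around it are shown on the strand of the gene. They are shown because the levels of Bcl2a1b and Bcl2a1d followed each other across clusters (r = 0.95), as given above. Bcl2a1a is printed beside them as the third copy with a match. Capitals mark the match, which begins 120 bases before the RefSeq start of Bcl2a1a, 164 before that of Bcl2a1b and 114 before that of Bcl2a1d. The stretches are chr9:88956780-88956826 on the plus strand, chr9:89199089-89199135 on the plus strand and chr9:88731938-88731984 on the minus strand.

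Bcl2a1a: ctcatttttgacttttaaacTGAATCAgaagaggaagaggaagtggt
Bcl2a1b: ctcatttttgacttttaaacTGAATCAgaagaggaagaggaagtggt
Bcl2a1d: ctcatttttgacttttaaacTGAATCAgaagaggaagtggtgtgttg

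The match is a description of these letters, not of a bound site. Of the other motifs searched, GTAAACA, a FOXO core held by 3.65% of windows, was found in Bcl2l11 and Bbc3. The STAT forms TTCNNNGAA (8.30% of windows) and TTCCNNGAA (4.81%, which is contained in the first) were found in no window of the 9 members searched. Pmaip1 was not searched for any of these motifs.

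Genes around the family gave few calls. Over all cells, 0 genes passed in edgeR in each of 8 lists: 8 tested genes of the remaining BCL2 family, 14 caspases and mitochondrial death genes, 5 inhibitors of apoptosis, 11 death receptors and adaptors, 10 p53 pathway genes, 15 genes of survival cytokine signalling, 11 NF-kB genes and 6 genes of MCL1 protein turnover. Median log2 changes of the lists ran from -0.11 to 0.14, beside 0.00 over all genes. The whole background was 0.611% called.

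NF-kB is known to drive A1 and Bcl2l1. Its list had 9 of 11 log2 changes below 0 and a median of -0.11 over all cells. In cluster 0, where Bcl2a1d was called, the list had 4 of 11 below 0 and a median of 0.14. The list medians in clusters 1, 2, 3, 5 and 6 were -0.06, -0.09, -0.19, -0.47 and -0.07. Medians over all genes in the tested clusters lay between -0.016 and -0.003. In cluster 5, 10 of 10 changes of the list were below 0. Bcl2a1b and Bcl2a1d changed there by -0.55 and -0.45, neither called. Bcl2l1 had a log2 change of 0.51 over all cells. The part of NF-kB in the A1 and Bcl2l1 levels was not tested. Rel, the subunit named above, was at 109, 129, 114 and 101 CPM in Cren and at 93.2, 82.6, 92.7 and 63.0 in Crep. Every Crep hashtag lay below every Cren hashtag, but the log2 change of -0.44 did not pass (adjusted p = 0.102 in edgeR). In cluster 5, where 1.19% of all genes were called, 2 of 10 tested NF-kB genes passed. Tnfaip3, which encodes A20, fell by 0.75 on the log2 scale in Crep (978 ± 123 CPM in 4 Cren and 592 ± 40.6 in 3 Crep hashtags, SD, adjusted p = 0.000213 in edgeR). Nfkbia, the gene of the inhibitor IkB alpha, fell by 0.92 (961 ± 238 and 490.4 ± 109, SD, adjusted p = 0.0319 in edgeR). The Nfkbia call was lost without Cren 3, Cren 4 or Crep 2, with adjusted p from 0.0813 to 0.295. Over all cells their log2 changes were -0.32 and -0.29 (adjusted p = 0.419 and 0.711 in edgeR).

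In the survival cytokine list, Stat5b, which carries interleukin signals to the nucleus, was at 87.4, 73.2, 76.0 and 118 CPM in Cren and at 63.8, 61.3, 60.9 and 50.8 in Crep. The groups did not overlap, and Cren 4 was the highest. The log2 change was -0.57 (adjusted p = 0.107 in edgeR, 0.0337 in DESeq2). Jak3 (0.26, adjusted p = 0.352) and Stat5a (-0.31, adjusted p = 0.505) were next by p in edgeR.

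Cycs, the gene of cytochrome c, which the effectors release, was at 68.9 ± 2.21 CPM in Cren and 82.1 ± 4.46 in Crep (SD, n = 4 hashtags each), a log2 change of 0.26 with an unadjusted p of 0.00914 and an adjusted p of 0.247 in edgeR. Vdac3, of the same list, had a log2 change of -0.17 (adjusted p = 0.516 in edgeR). Among the 3 smallest p-values of their lists were those of Tnfsf10, the TRAIL ligand (0.32, adjusted p = 0.331), the p53 target Sesn1 (0.29, adjusted p = 0.442), Birc5 (-0.51, adjusted p = 0.581), Fbxw7 of MCL1 turnover (0.27, adjusted p = 0.578) and Bik of the remaining BCL2 family (-0.49, adjusted p = 0.461), all in edgeR.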

How the data were processed

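Raw UMI counts per gene and cell, deposited by the authors with an annotation of hashtag, group and cluster per cell, were used as they stand. The mitochondrial percent per cell is the authors' deposited value. Per the submitters' processing notes, the mm10 build, Seurat 4.3.0, bcl2fastq 2.20.0.422 and Cell Ranger 7.0.0 were used, with no role stated. No cell was removed and no doublet caller was run. Counts were summed per hashtag (4 against 4), over all cells and per fine cluster, and tested as Crep minus Cren in edgeR 4.0.16 (quasi-likelihood, TMM, filterByExpr, robust) with Benjamini-Hochberg adjustment at 0.05 over all genes. A cluster was tested where 3 or more hashtags per group had 20 or more cells. Levels are CPM, computed from all UMIs of the same cells. Errors are SD over hashtags or SE of a log2 change.

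The genes named besides the members are Bcl6, genes of 8 pathway lists that passed or had the 3 smallest p of their list, and the 3 genes most like each member of at least 20 CPM. Il7r, Hspa1a and Dnajb1 were chosen after their values were seen. Not every gene this rule names is reported here. The members and lists were chosen with earlier results of these data known. Alternatives used DESeq2 1.42.0 and limma 3.58.1, no filter, left-out hashtags or clusters, cells thinned to 2000 UMIs and summed A1 copies. The scripts were tested on simulated data. R 4.3.3 and Python 3.11.15 were used.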

Additional observations from a re-analysis of the deposited data

Results flagged for a closer look

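Among the 4 Cren hashtags, Cren 4 lay far from the others for 2 members. Bbc3 was at 100.4 CPM there, and its gap to the next hashtag was 0.886 of the group's range, above the 95% critical value of Dixon's test for 4 samples. Bcl2 was at 165 CPM, with a gap of 0.844 of the range. Chance alone passes this value in about 1 in 20 groups, and 20 were examined (10 members, 2 groups each). No other member, and no Crep hashtag, passed the value.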

How the results depend on the processing

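The count of members called over all cells was 0 under all 18 alternatives run, and the 180 values of single members kept their side of the threshold. Within fine clusters it was 0 with DESeq2, with no filter, in 4 coarse clusters and without each hashtag. The exception was cluster 0 with the A1 copies summed, chosen after seeing the data, where 1 was called. Uncalled log2 changes that crossed 0 were not counted as reversals: 52 of 793 values did so.

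The number of all genes called moved more. Over all cells it was 59, and 143 with DESeq2, 37 with limma-voom, 26 without cluster 7, 14 with clusters weighted equally and 14 to 121 without 1 hashtag. Cluster 0 had 53 genes, and 27 with DESeq2, 103 with no filter and 18 to 64 without 1 hashtag. Cluster 1 had 8, and 5, 25 and 2 to 13 under the same settings. Cluster 2 had 14, 55 with no filter and 6 to 24 without 1 hashtag. Cluster 3 had 0, and 2 with DESeq2, 15 with no filter and 0 to 3 without 1 hashtag. Cluster 5 had 48, 92 with no filter and 20 to 115 without 1 hashtag. Cluster 6 had 1, and 0 with DESeq2, 12 with no filter and 0 to 3 without 1 hashtag. The interaction had 9, 23 with no filter and 3 to 13 without 1 hashtag. The cause was not tested.

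With the hashtag number as a replicate block, 118 genes and 0 members were called, and Rel passed (adjusted p = 0.0396 in edgeR). Hashtags of the same number had deviations from their group means that correlated at -0.09, 0.21, 0.22 and 0.13 over 4130 genes. Of the 8 hashtags, 4 correlated best with their own number in the other group. Because 1 of the 4 same-number correlations was below 0.1 and no label ties the numbers together, they were not taken as pairs. The comparison of expanded with other clones, and the setting without expanded clones, were not run, because the annotation used here gives no clone per cell. Low counts limit Bcl2l1 (460 UMIs) and Bad (632 UMIs) most.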
